A study of Mus musculus with 6 samples.

Results

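Notch signalling was followed across mouse neural stem cells (NSC) through 10 genes: the receptors *Notch1*, *Notch2* and *Notch3*, the ligands *Dll1*, *Dll3*, *Jag1* and *Jag2*, and the target genes *Hes1*, *Hes5* and *Hey1*. They were chosen by symbol for their role in the pathway, with earlier results of these data known. All 10 were found among the 50686 genes of the count files, and all 10 passed the filter on low counts that left 15521 genes for testing. RNASeq counts came from 2 primary cultures of NSC from wild-type embryos and 2 cultures labelled NSC Bmi1Over, from STOPFloxBmi1;NestinCre embryos. Both genotypes were taken at E16.5, and cells of the subventricular zone were isolated from the cerebral hemispheres and grown with FGF and EGF. In STOPFloxBmi1;NestinCre embryos, Cre driven by the Nestin promoter removes a floxed stop in front of a *Bmi1* transgene, so that recombination is directed to neural progenitors and their progeny. ChIPSeq for H3K27me3, the histone mark laid down by Polycomb repressive complex 2, gave 1 list of peaks per genotype. Cultures of the glioma model used in the study were not analysed here.

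Notch receptors are single-pass membrane proteins that are activated by Delta-like and Jagged ligands on a neighbouring cell. Ligand binding exposes the receptor to ADAM proteases and then to γ-secretase, and the released intracellular domain joins the DNA-binding protein RBPJ and Mastermind-like co-activators to switch on genes of the Hes and Hey families. These encode basic helix-loop-helix repressors that hold back proneural genes, and in the embryonic brain the pathway is known for keeping radial glia and neural stem cells from differentiating. H3K27me3 is a mark of repressed promoters, and Bmi1 is a subunit of Polycomb repressive complex 1.

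Reads counted on genes ranged from 18112100 to 61353076 per library, and the deepest library was NSC Bmi1Over culture 2. Unmapped reads made up 11.2% and 13.8% of all reads for NSC against 16.2% and 17.6% for the libraries labelled NSC Bmi1Over, and the 10 most abundant genes took 5.23% and 6.48% against 8.57% and 10.1% of the counted reads. These properties differed in the same direction as the labels, and their part in the results was not tested. Values per library are given as CPM, read counts scaled to the library size after normalisation by the trimmed mean of M-values (TMM), and the groups were tested by the quasi-likelihood method of edgeR, with p adjusted by the Benjamini-Hochberg method over all genes tested and a call at an adjusted p under 0.05. *Bmi1* itself stood at 133.2 and 123.4 CPM in NSC, against 118.5 and 112.5 CPM where the label is NSC Bmi1Over (adjusted p = 0.463), so that the mouse gene was not higher where the labels place the transgene. All directions below therefore rest on the labels. Markers of neural stem cells and radial glia summed to between 5939 and 6650 CPM in every library. Of these 8 genes, 4 were lower and 1 higher in NSC Bmi1Over without overlap (30.0% and 29.0% of all genes tested), and the lowest edgeR adjusted p was 0.129. Genes of endothelial cells, mural cells and microglia reached at most 2.95 CPM.

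Promoter sequence is shown for 2 members with log2 fold changes of opposite sign, neither of them called, since the pathway ends at DNA through RBPJ. RefSeq promoter windows of 300 bases (250 before and 50 after the start, build GRCm38.p6) covered 8 of the 10 members in 9 windows, *Dll1* having 2. *Hes1* and *Hey1* had no entry. The stretch before the first exon is printed 5′ to 3′ along the gene, and capitals mark TGGGAA, the core recognised by RBPJ, or its reverse complement. The *Hes5* stretch is chr4:154960673-154960922 on the plus strand, and that of *Jag1* is chr2:137116645-137116770 on the minus strand.
Hes5: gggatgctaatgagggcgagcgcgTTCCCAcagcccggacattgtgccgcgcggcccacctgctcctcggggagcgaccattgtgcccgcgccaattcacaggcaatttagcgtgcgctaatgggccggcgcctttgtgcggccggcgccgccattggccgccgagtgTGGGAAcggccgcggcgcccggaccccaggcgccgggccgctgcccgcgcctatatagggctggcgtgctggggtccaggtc
Jag1: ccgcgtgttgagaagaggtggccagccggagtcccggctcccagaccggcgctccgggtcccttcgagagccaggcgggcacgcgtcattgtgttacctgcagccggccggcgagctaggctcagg
The *Hes5* window held 2 matches to TGGGAA, 1 on the minus strand beginning 226 bases before the start and 1 on the plus strand beginning 82 bases before it. The *Jag1* window held 0. Of the 9 windows, 1 held TGGGAA on either strand, against 25.6% of all 32851 windows in the table. CACNAG, the N box bound by Hes proteins, was in 4 of 9 windows (42.5% of all windows) with matches on both strands in *Notch1* and *Notch3*. The E box CANNTG, its own reverse complement, was in 5 of 9 windows (72.3% of all windows). No sites of different motifs overlapped in the windows of the members (0 pairs). GC content ranged from 52.0% in *Dll3* to 86.0% in *Jag2*, against a median of 52.7% over all windows. A match of letters is a description of the window and not a measured binding site.

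Among the receptors, *Notch1* was counted at 331.5 and 380.3 CPM in NSC and at 397.5 and 501 CPM in NSC Bmi1Over. Both NSC Bmi1Over cultures lay above both NSC cultures, although NSC culture 2 and NSC Bmi1Over culture 1 were close. The log2 fold change (NSC Bmi1Over over NSC) was 0.34 with a standard error of 0.17 (edgeR adjusted p = 0.268), and the cultures of 1 group differed among themselves by 0.20 in NSC and 0.34 in NSC Bmi1Over on the same scale. Without NSC Bmi1Over culture 2 the value was 0.16 (edgeR adjusted p = 0.713). *Notch2*, a receptor with overlapping roles in neural progenitors, stood at 80.7 and 82.8 CPM in NSC and at 92.5 and 112.9 CPM in NSC Bmi1Over. Its groups did not overlap either, and the 2 NSC cultures were nearly equal. The difference was 0.33 (standard error 0.14), with an unadjusted p of 0.0394 and an adjusted p of 0.185 in edgeR's test, and it was called without NSC Bmi1Over culture 1 (0.46, adjusted p = 0.0437). Without NSC Bmi1Over culture 2 it was 0.18 (edgeR adjusted p = 0.573). *Notch3* gave 112.1 and 92.6 CPM in NSC and 102.6 and 111.8 CPM in NSC Bmi1Over, so that both NSC Bmi1Over values fell between those of NSC (log2 fold change 0.07, standard error 0.14, edgeR adjusted p = 0.785). In these bulk cultures, fewer cells expressing a gene and less RNA per cell cannot be told apart.

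Per kb of exon, which allows genes to be compared, *Notch1* was the most abundant receptor in all 4 libraries. It made up 52.0% and 58.0% of the summed level of the 4 Notch receptors in NSC and 56.5% and 59.0% in NSC Bmi1Over. *Notch3* followed with 30.9% and 24.8% against 25.7% and 23.1%, and *Notch2* with 16.7% in both NSC cultures and 17.4% and 17.5% in NSC Bmi1Over. *Notch4*, which is best known from endothelium and is not among the 10 genes, stayed at or under 0.458% in every library. The groups overlapped in the shares of *Notch1* and *Notch3*. Those of *Notch2* did not overlap, but did when the counts of both strand columns were added (14.6% and 14.3% in NSC, 14.7% and 14.4% in NSC Bmi1Over).

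Of the 4 ligands among the 10 genes, *Jag1* had the largest difference between the groups. NSC cultures 1 and 2 held 103.9 and 173.6 CPM of *Jag1*, and NSC Bmi1Over cultures 1 and 2 held 209.3 and 293 CPM. The groups did not overlap, but NSC culture 2 lay closer to NSC Bmi1Over culture 1 than to the other NSC culture. *Jag1* had a log2 fold change of 0.86 with a standard error of 0.25 and an unadjusted p of 0.0081, and the adjusted p of 0.0939 missed the threshold in edgeR's test. The 2 NSC cultures alone differed by 0.74 on the log2 scale and the 2 NSC Bmi1Over cultures by 0.48. Without NSC culture 1 the difference was 0.53 (edgeR adjusted p = 0.579). It was called without NSC culture 2 (1.27, adjusted p = 0.000115) or without NSC Bmi1Over culture 1 (1.08, adjusted p = 0.0221).

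*Dll1*, the Delta-like ligand carried by cells entering neuronal differentiation, was counted at 55.1 and 49.8 CPM in NSC and at 39.8 and 53.1 CPM in NSC Bmi1Over. NSC Bmi1Over culture 1 was the lowest of the 4, and culture 2 lay between the NSC cultures (log2 fold change −0.17, standard error 0.16, edgeR adjusted p = 0.519). *Dll3*, a divergent family member that does not activate Notch in a neighbouring cell, gave 16.6 and 15.4 CPM in NSC and 13.8 and 18.8 CPM in NSC Bmi1Over. The NSC values lay within the range of NSC Bmi1Over (log2 fold change 0.04, standard error 0.18, edgeR adjusted p = 0.907). *Jag2*, the second Jagged ligand, was the sparsest member, with 106 and 78 reads in NSC and 53 and 344 reads in NSC Bmi1Over, or 3.36, 3.08, 3.02 and 6.01 CPM. Only NSC Bmi1Over culture 2 stood apart, and the log2 fold change of 0.54 (standard error 0.32, edgeR adjusted p = 0.332) became −0.09 without it and 0.90, then called, without the other NSC Bmi1Over culture (edgeR adjusted p = 0.0376).

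The ligand pool was led by *Jag1*. Per kb of exon, *Jag1* accounted for 47.7% and 62.4% of the summed level of the 5 canonical Delta-like and Jagged ligands (*Dll4* included) in NSC and for 70.2% and 71.0% in NSC Bmi1Over. *Dll1* accounted for 34.9% and 24.7% in NSC and for 18.5% and 17.8% in NSC Bmi1Over, and *Dll3* for 15.6% and 11.3% against 9.47% and 9.32%. The shares of these 3 ligands did not overlap between the groups. Shares are tied to each other by construction, and they were not tested. With 2 cultures per group an exact permutation test of a single value cannot give a two-sided p under 0.333. The summed ligand level was 37.4 and 47.8 CPM per kb in NSC and 51.2 and 70.8 CPM per kb in NSC Bmi1Over.

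The 3 target genes were all lower in both NSC Bmi1Over cultures than in either NSC culture, as were 30.0% of all genes tested. *Hey1*, a repressor that partners with Hes proteins, was counted at 27.6 and 20.3 CPM in NSC and at 12.6 and 14.8 CPM in NSC Bmi1Over. The NSC cultures were higher, but differed from each other by −0.45 on the log2 scale (culture 2 minus culture 1). *Hey1* had a log2 fold change of −0.80 (standard error 0.18) with an unadjusted p of 0.00208, the lowest of the 10 genes, and an adjusted p of 0.0623 in edgeR's test. The gene was called without NSC culture 2 (−1.01, adjusted p = 0.00151) or without NSC Bmi1Over culture 1 (−0.70, adjusted p = 0.037), and not without NSC culture 1 (−0.56, adjusted p = 0.513) or without NSC Bmi1Over culture 2 (−0.93, adjusted p = 0.0721). *Hes5*, an effector of Notch that is typical of radial glia, gave 318 and 189 reads in NSC and 72 and 355 reads in NSC Bmi1Over, which correspond to 10.1, 7.47, 4.11 and 6.21 CPM. NSC Bmi1Over culture 1 was lowest, and the gap between NSC culture 2 and NSC Bmi1Over culture 2 was small. *Hes5* had a log2 fold change of −0.74 (standard error 0.26, unadjusted p = 0.0193, edgeR adjusted p = 0.132), and was called without NSC culture 2 (−0.94, adjusted p = 0.0333). It was not called without NSC culture 1 (−0.51, adjusted p = 0.795), NSC Bmi1Over culture 1 (−0.51, adjusted p = 0.153) or NSC Bmi1Over culture 2 (−1.10, adjusted p = 0.0919). *Hes1*, the most abundant target, stood at 44.6 and 36.1 CPM in NSC and at 35.0 and 34.1 CPM in NSC Bmi1Over. Here the groups nearly touched, and only NSC culture 1 stood apart (log2 fold change −0.23, standard error 0.14, edgeR adjusted p = 0.343). Without that culture the value was −0.067 (edgeR adjusted p = 0.975), and without NSC culture 2 it was −0.37 (edgeR adjusted p = 0.345).

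The summed level of *Hes1*, *Hes5* and *Hey1* was 37.7 and 29.4 CPM per kb in NSC and 24.1 and 25.8 CPM per kb in NSC Bmi1Over. *Hes1* made up 58.0% and 60.3% of it in NSC and 71.4% and 64.8% in NSC Bmi1Over, while *Hey1* made up 22.4% and 21.1% against 16.1% and 17.6%. *Hes5* made up 19.6% and 18.6% against 12.5% and 17.6%. None of these 3 shares overlapped between the groups, although that of *Hes5* nearly did. These values rest on unstranded counts, which drop the reads that fall where *Hes5* overlaps a gene on the other strand. On the added strand columns, applied to shares and levels after the data were seen, *Hes5* made up 36.2% and 33.0% in NSC and 21.8% and 30.3% in NSC Bmi1Over. *Hes1* then made up 46.0% and 49.7% against 63.8% and 54.8%, and *Hey1* 17.8% and 17.4% against 14.4% and 14.9%. The summed level became 47.6 and 35.7 CPM per kb in NSC and 26.9 and 30.5 CPM per kb in NSC Bmi1Over. Of the 5 astrocyte markers, 2 were lower without overlap between the groups (30.0% of all genes) and 3 overlapped. Their sum was 253.1 and 193.1 CPM in NSC and 136.9 and 124.8 CPM in NSC Bmi1Over, 4 of the 5 had a negative log2 fold change, and 1 was called lower (0.122% of all genes), *Aldh1l1*, a folate enzyme of astrocytes (log2 fold change −0.86, standard error 0.17, edgeR adjusted p = 0.044). *Gfap*, the defining filament of astrocytes, was at or under 0.769 CPM in every library, and none of the 5 was at 0. The part of the astrocyte markers in the levels of the target genes was not tested.

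**Figure D1:**
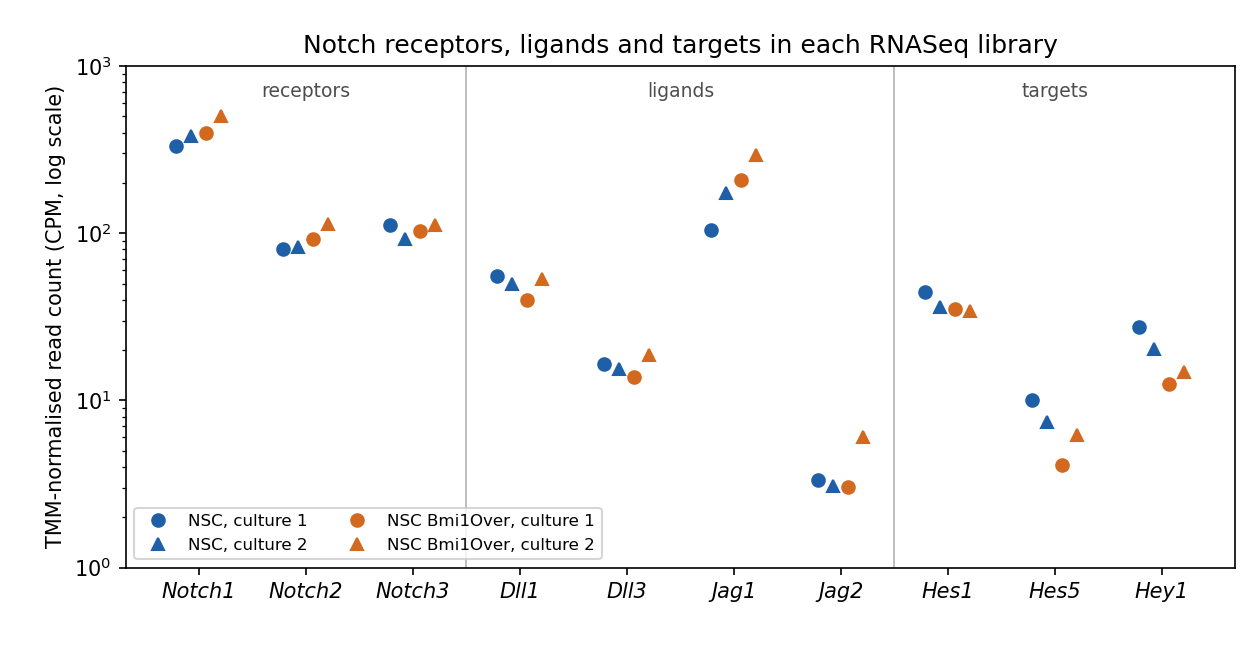
TMM-normalised read counts (CPM, log axis) of the 10 genes in each of the 4 RNASeq libraries, blue for NSC and orange for NSC Bmi1Over, with a circle for culture 1 and a triangle for culture 2. Both orange points lie above both blue points for *Notch1*, *Notch2* and *Jag1* and below them for *Hes1*, *Hes5* and *Hey1*.

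Read as a group, the 10 genes gave 0 calls in edgeR's test, where 2.15% of all genes tested were called (2.03% higher and 0.122% lower in NSC Bmi1Over). At an unadjusted p under 0.05 there were 4, *Notch2* and *Jag1* higher and *Hes5* and *Hey1* lower, against 24.2% of all genes (17.0% higher and 7.22% lower). DESeq2's Wald test called 2, *Jag1* higher and *Hey1* lower, and called 11.2% of the genes to which it gave an adjusted p. In edgeR, 3 were called without NSC culture 2 (8.93% of all genes) and 4 without NSC Bmi1Over culture 1 (15.6% of all genes), and 0 without NSC culture 1 (1.11%) or without NSC Bmi1Over culture 2 (1.45%). The groups did not overlap for 6 of the 10 genes, 3 in each direction, and did not overlap for 59.0% of all genes tested (29.0% higher and 30.0% lower), so that this count is near the background. The median log2 fold change was 0.05 over the 10 genes and −0.01 over all genes tested. With a culture left out, the median of the 10 genes changed sign. It ran from −0.15 without NSC Bmi1Over culture 2 to 0.18 without NSC Bmi1Over culture 1. By role, the median was 0.33 for the 3 receptors, 0.29 for the 4 ligands and −0.74 for the 3 targets. *Hes5* and *Hey1* lay below the middle 90% of all genes, which ran from −0.50 to 0.91, and the other 8 lay within it.

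**Figure D2:**
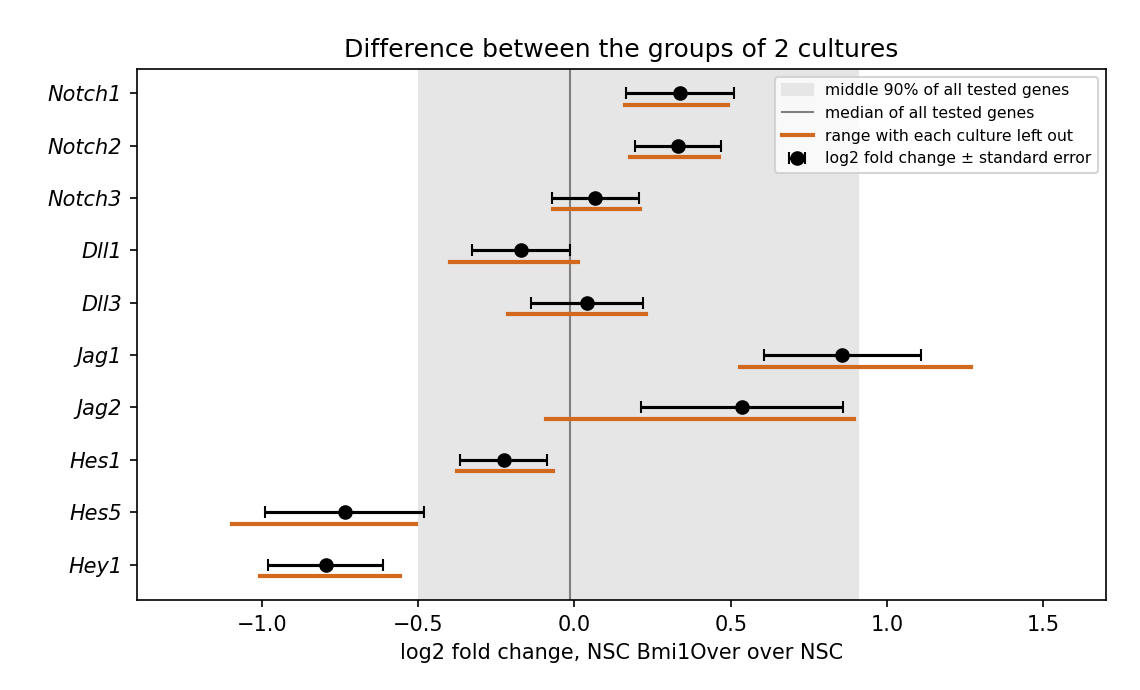
Log2 fold change of each gene (NSC Bmi1Over over NSC, 2 cultures each) with its standard error from edgeR as black points and bars, and in orange the range obtained with each culture left out in turn. Grey marks the middle 90% of all 15521 genes tested, from −0.50 to 0.91, and *Hes5* (−0.74) and *Hey1* (−0.80) lie below it, while the orange range crosses 0 for *Notch3*, *Dll1*, *Dll3* and *Jag2*.

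The order of the genes by level per kb of exon was similar at its ends in both groups. In NSC, *Notch1* (23.3 to 26.7 CPM per kb), *Jag1* (17.8 to 29.8) and *Hes1* (17.7 to 21.9) came first, each overlapping the next. They were followed by *Notch3* and *Dll1*, which overlapped each other between 11.4 and 13.9 CPM per kb, and by *Notch2*, *Hey1*, *Hes5* and *Dll3*, each overlapping the next between 5.41 and 8.46 CPM per kb. *Jag2* was last with 0.443 to 0.482 CPM per kb, apart from all others. In NSC Bmi1Over, *Jag1* (35.9 to 50.2 CPM per kb) came before *Notch1* (27.9 to 35.2) without overlap. *Hes1* (16.7 to 17.2) and *Notch3* (12.7 to 13.8) followed, each apart from its neighbours, then *Dll1* (9.44 to 12.6) and *Notch2* (8.58 to 10.5), which overlapped each other. *Dll3* (4.85 to 6.60) stood above *Hey1* (3.86 to 4.54) and *Hes5* (3.01 to 4.55), which overlapped each other. *Jag2* was again last, at 0.434 to 0.864 CPM per kb. The order depends on the strand columns for genes that share sequence with another. With these columns added, *Hes5* stood at 11.8 to 17.2 CPM per kb in NSC, where it overlapped *Notch3* (12.7 to 15.4) and *Dll1* (14.6 to 16.5). In NSC Bmi1Over it stood at 5.86 to 9.25 CPM per kb, above *Hey1*, and *Notch1* (35.6 to 47.0) overlapped *Jag1*.

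Some of these genes share sequence with a gene on the other strand, which matters because the unstranded counts drop a read that falls on both. A total of 433 bp of the 1363 bp of *Hes5* exon overlap the antisense gene *Gm20421*, overlaps of 414 to 1068 bp with antisense genes exist at *Notch1*, *Notch3* and *Dll1*, and *Notch2* shares 541 bp with a gene on its own strand. When the 2 strand columns were added in place of the unstranded column, a read in an overlap with an antisense gene was counted for both genes. The *Hes5* count became 226% of the unstranded one in NSC and 202% in NSC Bmi1Over, that of *Notch1* 122% and 132%, that of *Dll1* 125% and 120%, and that of *Notch3* 111% and 110%. The levels of *Hes5* given here therefore leave out the reads in this overlap, whichever of the genes they come from. On the added columns the log2 fold change was −0.91 for *Hes5* (edgeR adjusted p = 0.087) and 0.43 for *Notch1* (edgeR adjusted p = 0.21). The overlapping genes themselves reached at most 1.03 CPM in any library, but on the unstranded column, which drops the shared reads for them as well. Reads of a gene and of its antisense partner cannot be told apart without strand.

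The rest of the pathway was read from a list of 55 genes, of which 49 were tested. Of these, 2 were called higher in NSC Bmi1Over and 0 lower by edgeR, where 2.03% of all genes were called higher. At an unadjusted p under 0.05, 16 were higher and 5 lower (17.0% and 7.22% of all genes), and DESeq2 called 8 higher and 1 lower (11.2% of all genes in either direction). The groups did not overlap for 18 higher and 13 lower genes (29.0% and 30.0% of all genes), and the median log2 fold change was 0.15 (−0.01 over all genes). This median ran from 0.063 without NSC Bmi1Over culture 2 to 0.25 without NSC Bmi1Over culture 1. With each culture left out, the count of calls was 0 without NSC culture 1, 9 without NSC culture 2, 12 without NSC Bmi1Over culture 1 and 1 without NSC Bmi1Over culture 2, where 1.11%, 8.93%, 15.6% and 1.45% of all genes were called. *Neurl1a*, an E3 ubiquitin ligase that drives endocytosis of ligands, was counted at 19.4 and 23.7 CPM in NSC and at 41.0 and 36.8 CPM in NSC Bmi1Over. It rose by 0.85 on the log2 scale (standard error 0.15, edgeR adjusted p = 0.037), and without NSC culture 1 it was not called (log2 fold change 0.71). *Psen2*, a catalytic subunit of γ-secretase, was counted at 8.77 and 10.9 CPM in NSC and at 16.8 and 19.8 CPM in NSC Bmi1Over, and rose by 0.90 (standard error 0.18, edgeR adjusted p = 0.0456). In both genes the NSC Bmi1Over cultures were well above the NSC cultures. *Psen2* was not called without NSC culture 1 (log2 fold change 0.75) or without NSC Bmi1Over culture 2 (0.78), nor with DESeq2's size factors (0.91).

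By role, the 10 genes of receptor cleavage (ADAM proteases, γ-secretase subunits and furin) all had a positive log2 fold change, with a median of 0.49, 8 without overlap between the groups, 7 at an unadjusted p under 0.05 and 1 called. Over all genes, 29.0% were higher without overlap, 17.0% were higher at an unadjusted p under 0.05 and 2.03% were called higher by edgeR. The median log2 fold change over all genes was −0.01. The 6 tested genes of the other receptor and ligands were positive as well (median 0.52), with 3 free of overlap and a lowest edgeR adjusted p of 0.0935. Of the 5 enzymes that glycosylate Notch, 4 were positive and 1 negative (median 0.34, lowest edgeR adjusted p 0.0864). The 14 genes of the nuclear complex split into 6 positive and 8 negative (median −0.07, lowest edgeR adjusted p 0.0655). Ligand and receptor trafficking held 5 positive and 6 negative genes, 1 of them called (median −0.20). Among the 8 other targets and relatives of the Hes and Hey family, 3 were tested and all were negative (median −0.51, lowest edgeR adjusted p 0.217). With normalisation to library size alone, the median moved to −0.17 over all genes, to −0.01 over the 49 pathway genes and to −0.10 over the 10 genes, so that directions of small differences depend on the scaling.

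**Figure D3:**
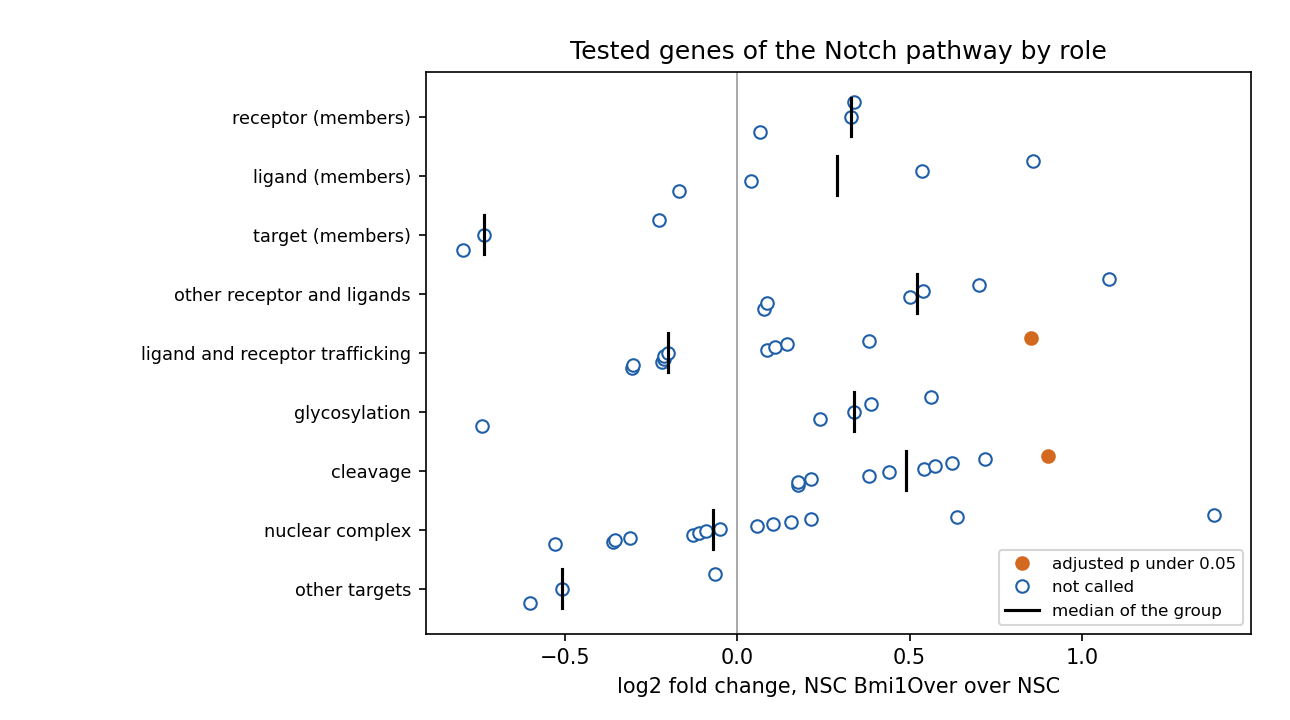
Log2 fold change (NSC Bmi1Over over NSC) of each tested Notch pathway gene by role, with the 10 genes in the upper rows and the 49 others below; filled orange points are called at an adjusted p under 0.05 by edgeR and black bars are group medians. Points of receptor cleavage lie right of 0 (median 0.49) and those of the target genes left of 0 (medians −0.74 and −0.51), and the 2 called genes are *Neurl1a* and *Psen2*.

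H3K27me3 was read from peaks called by MACS2 in each library, 12982 in NSC and 6810 in NSC Bmi1Over. Promoters were the 5 kb on each side of every annotated transcription start site (TSS), and a gene with a peak there is called marked. In NSC 2 of the 10 genes were marked, *Jag2* and *Hes1*, where 8.93% of protein-coding genes were marked. In NSC Bmi1Over 1 was marked, *Hes1*, where 4.46% were. With 1 library per genotype, no difference between the lists could be tested against a spread between replicates. The study discarded the weaker replicate of each condition by read number, quality scores and fingerprint plots, without naming it, and the highest of its aligned read totals is for an NSC replicate. Depth was not accounted for, and its part in the unequal number of peaks was not tested. The lowest fold enrichment of any peak was 3.52 in the NSC list and 4.03 in the NSC Bmi1Over list.

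*Jag2* (minus strand, chr12:112907819-112929776 in mm10) had 2 NSC peaks. The upstream peak spanned 221 bp and ended 51 bp before the annotated start, with a 4.09-fold enrichment over the background of MACS2 and a −log10 q of 2.78. The other spanned 200 bp at chr12:112928384-112928583, 1193 to 1392 bp into the gene, mostly intronic with 65 bp in exon and over an annotated internal TSS, with a 3.79-fold enrichment and a −log10 q of 2.23. Both were short, shorter than the median of 355 bp in the NSC list, and 52.6% and 26.3% of NSC peaks had the same or a lower fold enrichment. The nearest NSC Bmi1Over peak lay 31715 bp from a *Jag2* TSS. The upstream peak is printed below as the called H3K27me3 nearest to the 5′ end of any of the 10 genes, from chr12:112929827-112930047 of GRCm38.p6, plus strand, with CpG dinucleotides in capitals.
Jag2 upstream peak: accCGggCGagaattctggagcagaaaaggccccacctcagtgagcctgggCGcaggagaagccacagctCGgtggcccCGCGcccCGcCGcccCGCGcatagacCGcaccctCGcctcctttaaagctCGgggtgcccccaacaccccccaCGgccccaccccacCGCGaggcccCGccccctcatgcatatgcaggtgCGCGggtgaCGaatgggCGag
It held 21 CpG dinucleotides in 221 bases, with a GC content of 71.0% and a ratio of observed to expected CpG of 0.776, against a median ratio of 0.384 over all RefSeq promoter windows. The windows of the members, marked or not, all lay above that median, from 0.573 in *Dll3* to 1.14 in *Jag2*. *Jag2*, the marked gene of lower expression, was the least abundant of the 10 genes per kb of exon.

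*Hes1* (plus strand, chr16:30064384-30067796 in mm10) had an NSC peak of 683 bp, chr16:30061595-30062277, that ended 2107 bp upstream of the start, with a 3.90-fold enrichment and a −log10 q of 2.46. Its NSC Bmi1Over peak was 200 bp long, chr16:30060984-30061183, and ended 3201 bp upstream, with a 4.27-fold enrichment and a −log10 q of 2.31. The 2 peaks did not overlap, so that 0 peaks at the 10 genes were shared between the lists. The other 8 genes had no peak within 5 kb of a TSS in either list. The nearest peak to a TSS among them was 10108 bp away in NSC, at *Hes5*, and 14225 bp away at *Dll1*, and in NSC Bmi1Over it was 55220 bp away, at *Hes5*. For *Jag1* the distance was 693818 bp to an NSC peak and 698964 bp to one of NSC Bmi1Over. No member had a peak in the gene body except *Jag2* in NSC.

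These marks depended on the limits set for peaks. With a −log10 q of at least 3, a fold enrichment of at least 5 or a length of at least 1000 bp, 0 of the 10 genes were marked in either list, and with a window of 1 kb *Jag2* alone was marked, in NSC. Of the 55 other pathway genes, 9 were marked in NSC and 7 of these in NSC Bmi1Over, where 8.93% and 4.46% of protein-coding genes were. With a fold enrichment of at least 5 the counts were 5 and 4, with a −log10 q of at least 3 they were 8 and 5, and with a length of at least 1000 bp they were 7 and 1. The share of protein-coding genes marked under these stricter limits was not computed. These counts, and the 0 of the 10 genes, therefore cannot be set against 8.93% or 4.46%. The 7 marked in both, named here after their peaks had been seen, were *Dll4*, *Dlk2*, *Maml3*, *Hes2*, *Hes3*, *Hey2* and *Helt*, and each was at or under 1.88 CPM of counted reads in NSC. At this level a mark was more frequent among protein-coding genes in general, at 11.9% below 1 CPM and 15.1% from 1 to 10 CPM in the NSC list, and at 6.82% and 6.52% in the other list. *Tle1* and *Tle3*, marked in NSC only, stood at 51.1 and 42.1 CPM of counted reads in NSC. The 46 pathway genes without an NSC mark ranged from 0.109 to 358 CPM, so that low genes were also found without a mark. *Hey2*, a relative of *Hey1*, had 4 NSC peaks that covered 5499 bp of its promoter window, the widest of 3675 bp with a 5.22-fold enrichment, and 6 shorter peaks in NSC Bmi1Over covering 2438 bp. *Dll4*, a ligand best known from endothelium, had 7 NSC peaks covering 4788 bp and 1 NSC Bmi1Over peak of 565 bp. Against these, the cover was 421 bp at *Jag2* and 683 bp at *Hes1* in NSC.

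**Figure D4:**
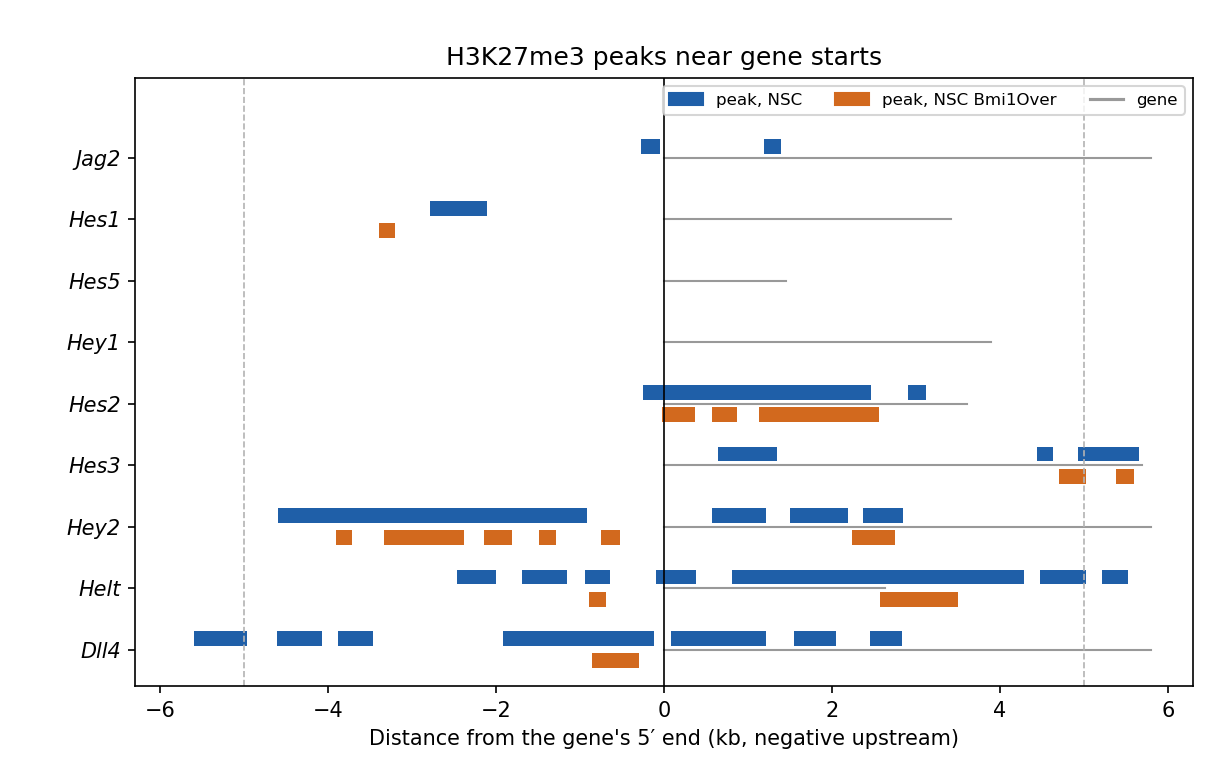
H3K27me3 peaks by distance from the 5′ end of the gene (kb, negative upstream, dashed lines at 5 kb) for the 3 target genes, *Jag2* and 5 other pathway genes, with NSC peaks in blue above the grey gene line and NSC Bmi1Over peaks in orange below it. *Jag2* and *Hes1* carry peaks of 200 to 683 bp, *Hes5* and *Hey1* carry none, and *Hey2* and *Dll4* carry wide NSC peaks of up to 3675 and 1795 bp.

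Marked and unmarked genes were set beside their expression in NSC, as the mean CPM of counted reads. The 8 unmarked members ranged from 9.27 to 374 CPM, and the marked ones stood at 3.39 (*Jag2*) and 42.6 CPM (*Hes1*). Across all protein-coding genes, 15.1% of those between 1 and 10 CPM and 4.23% of those at 10 CPM or more were marked in NSC. *Hes1* was thus marked while expressed at a level where a mark is less frequent, and its peak lay away from the start. In NSC Bmi1Over the corresponding shares were 6.52% and 1.53%. *Jag2* had peaks in the NSC list only, at 3.79-fold and 4.09-fold, below and just above the lowest fold enrichment of 4.03 in the NSC Bmi1Over list, so that its absence from the latter is not a measured loss.

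**Figure D5:**
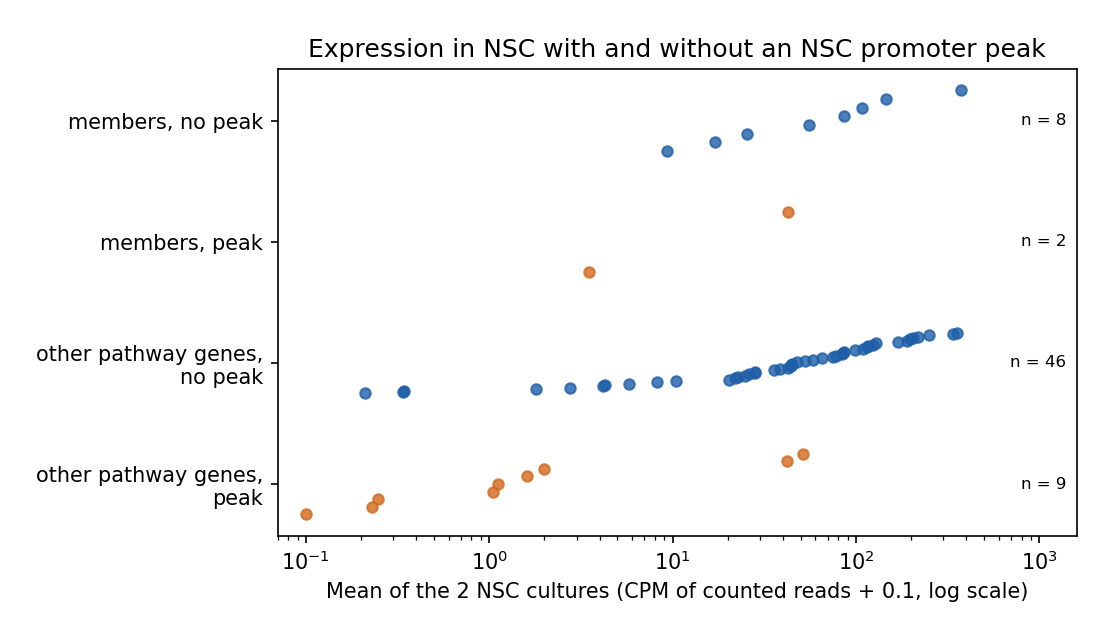
Mean expression in the 2 NSC cultures (CPM of counted reads plus 0.1, log axis) of the 10 genes and the 55 other pathway genes, split by whether the NSC list has a peak within 5 kb of a TSS, with 1 point per gene. The 8 unmarked members lie between 9.27 and 374 CPM before the added 0.1, and 7 of the 9 marked other pathway genes lie at or under 1.88 CPM. The 46 unmarked other pathway genes lie between 0.109 and 358 CPM.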

How the data were processed

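RNASeq was available for 2 cultures of NSC and 2 labelled NSC Bmi1Over, and H3K27me3 ChIPSeq for 1 library of each. For RNASeq, the authors used Trim Galore for trimming and STAR for alignment to mm10, and deposited raw counts of reads per gene. For ChIPSeq they aligned with Bowtie2 2.3.4, kept 1 library of each condition and ran MACS2 for broad peaks. The deposited peak lists give a fold enrichment and the −log10 of p-value and q-value per peak, computed by the authors.

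Rows of unmapped, multi-mapped, unassigned and ambiguous reads were left out, which left 65.9% to 72.2% of reads on genes. Of 50686 identifiers, 50462 matched GENCODE vM21, and exon lengths and TSS were taken from it. Unstranded counts of the 15521 genes kept by filterByExpr were normalised by TMM (factors 0.932 to 1.08) and fitted with edgeR 4.0.16 in R 4.3.3 without a term for the replicate number. Standard errors were derived from the fold change and the F statistic. The biological coefficient of variation was 12.9%. DESeq2 1.42.0 was an alternative. The p-values measure only the spread between these cultures, which the study describes as biologically independent. Peaks and promoters were analysed in Python 3.11.15. The scripts were tested on simulated counts.

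The 10 genes, the 55 pathway genes and 46 markers were chosen with earlier results of these data known. All 10 are described, of the pathway list called genes are named (others by name only where said), and markers are given as lists, with a marker named when it was called. Other named genes were chosen after their values were seen. Markers of neurons (6 genes, 830 to 961 CPM summed) and of oligodendrocytes (7 genes, 2476 to 2606 CPM) gave lowest edgeR adjusted p of 0.267 and 0.239. Endothelial, mural and microglial lists held 6, 8 and 6 genes. Alternatives were DESeq2's test and size factors, library size alone, other filters, a block for the replicate number, added strand columns, protein-coding genes only, each culture left out, and stricter peak limits and windows.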

Additional observations from a re-analysis of the deposited data

How the results depend on the processing

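Of the 10 genes, 0 were called in the main setting, 2 with DESeq2, 1 with library size alone (*Hey1*), 3 without a filter on low counts, and 0 to 4 with each culture left out. Of the pathway list, 2 were called, 9 with DESeq2, 1 with DESeq2's size factors in edgeR, 13 without the filter, and 0 to 12 with each culture left out. Over all genes, 334 were called, 1496 with DESeq2, 532 with library size alone, 2356 without the filter, and 176 to 2546 with each culture left out (176 without NSC culture 1, 1461 without NSC culture 2, 2546 without NSC Bmi1Over culture 1). Calls split into 315 higher and 19 lower in the main setting and into 345 higher and 187 lower with library size alone. With the replicate number as a block, 5 of the 10 genes (*Notch1*, *Notch2*, *Jag1*, *Hes5* and *Hey1*), 22 pathway genes and 3459 genes in all were called. The deviations of same-numbered cultures correlated at 0.169 over 2 pairs, which does not show that the numbers pair the cultures. Fits that leave out a culture assume that the lone culture varies like the other group.

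Library size alone turned *Notch3* to −0.087 and *Dll3* to −0.12. Leaving out a culture turned *Notch3* (−0.070 to 0.21), *Dll1* (−0.40 to 0.012), *Dll3* (−0.21 to 0.23) and *Jag2* (−0.091 to 0.90). *Notch1*, *Notch2*, *Jag1*, *Hes1*, *Hes5* and *Hey1* kept their direction in all 12 alternatives, with edgeR or DESeq2 adjusted p between 5.69e-06 and 0.579 for *Jag1*, between 0.000108 and 0.513 for *Hey1* and between 0.0114 and 0.795 for *Hes5*. Marked members in NSC, 2 in the main setting, were 0 with a −log10 q of at least 3, 0 with a fold enrichment of at least 5, 0 with a length of at least 1000 bp and 1 with a window of 1 kb. In NSC Bmi1Over, 1 in the main setting became 0 under each of these 4. The shares of protein-coding genes marked under these limits were not computed. The causes were not tested. *Jag2* and *Hes5* rest on 53 to 355 reads per library, and the ChIPSeq replicate kept for each peak list, chosen partly on read number, is not named in the sources used here.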
